A study of Arabidopsis thaliana with 6 samples.

Results

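The heat shock protein (HSP) chaperones HSP70, HSP90 and HSP101, their endoplasmic reticulum (ER) counterparts, and the heat shock factor *HSFA2* were followed in *Arabidopsis thaliana* seedlings that overexpress *Jatropha curcas ERFVII2* (*JcERFVII2*). They were chosen by locus, as 10 of the 28775 genes listed in the deposited count table, and with earlier results of these data known. The 5 cytosolic chaperones were *HSP101* (AT1G74310), *HSP90.1* (AT5G52640), *HSP90.2* (AT5G56030), *HSC70-1* (AT5G02500) and *HSP70* (AT3G12580). The 4 ER chaperones were *HSP90.7* (AT4G24190), *BIP1* (AT5G28540), *BIP2* (AT5G42020) and *BIP3* (AT1G09080). *HSFA2* (AT2G26150) encodes a transcription factor and not a chaperone.

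RNA of whole seedlings was sequenced from MA-Line1, MC-Line3 and Col-0, with 2 libraries per genotype, which the series describes as independent biological replicates. Both transgenic lines carry *JcERFVII2* under the 35S promoter of cauliflower mosaic virus, which is active in most tissues, in the Col-0 ecotype. MA-Line1 expresses a form with alanine in place of the cysteine just behind the initiator methionine, a change that protects the protein from the N-degron pathway, and MC-Line3 expresses the wildtype form. All seedlings, Col-0 included, were grown in air on plates of Murashige and Skoog medium with 16 h of light, were 10 d old by the sample labels, and were collected at the end of the light period. Each form of the protein was profiled in 1 transgenic line, so that the form and the line cannot be told apart. No heat or low oxygen treatment was applied.

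Heat shock proteins are chaperones that bind unfolded proteins and use ATP to help them fold, to hold them or to pull them out of aggregates. HSP70 and HSP90 work in sequence with co-chaperones, and HSP101 is the plant disaggregase that gives seedlings acquired thermotolerance. In the ER, BiP is the HSP70 and HSP90.7 is the HSP90, and their genes are induced when unfolded proteins accumulate in the ER. Heat shock factors bind heat shock elements (HSE) upstream of the cytosolic genes, whereas factors such as bZIP28 and bZIP60 bind ER stress response elements (ERSE) upstream of the ER genes.

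The upstream regions were searched because these elements differ between the cytosolic and the ER system. The 250 bases before each annotated start were read from TAIR10.1, the build of the RefSeq reference used here, and the submitters' processing notes name TAIR10 as their build. On both strands, the HSE was searched as GAANNTTCNNGAA or TTCNNGAANNTTC, which contain the shorter dyads GAANNTTC and TTCNNGAA. The ERSE was searched as CCAATNNNNNNNNNNCACG and the GCC box, a site of ethylene response factors, as GCCGCC. An HSE was matched in 1 of the 10 windows, against 0.408% of all 21057 windows, and a dyad in 1 of 10, against 15.8% of all windows. An ERSE was matched in 2 of 10, against 0.841% of all windows, and a GCC box in 1 of 10, against 1.95%. The hypoxia-responsive promoter element (HRPE) was matched in 0 of 10 windows and in 0.0427% of all windows. Both windows with an ERSE belonged to ER chaperones and the one with an HSE to *HSFA2*, and a window without a match says only that these letters are not in it. The annotated *HSP90.1* model begins with coding sequence and has no leader, so its window takes in the leader, and the sequence upstream of its transcript was at least in part not searched. The matched stretches are shown 5′ to 3′ on the strand of the gene, with the matched element in capitals.
*HSFA2*, HSE, chr2:11135521-11135563, plus strand: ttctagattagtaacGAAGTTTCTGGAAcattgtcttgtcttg
*HSP90.7*, ERSE, chr4:12556059-12556095, minus strand: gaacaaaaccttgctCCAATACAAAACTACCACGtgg
*BIP3*, ERSE on the opposite strand, in 2 copies, chr1:2931913-2932039, minus strand: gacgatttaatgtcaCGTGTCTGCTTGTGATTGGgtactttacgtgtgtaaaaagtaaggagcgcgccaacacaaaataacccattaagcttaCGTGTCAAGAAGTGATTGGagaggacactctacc
The HSE of *HSFA2* ended 76 bases and the ERSE of *HSP90.7* ended 4 bases before the start, and the pair of *BIP3* copies ended 156 and 78 bases before it. The GCC box lay 201 to 196 bases before the start of *HSFA2*.

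The libraries held 53084008 to 65271057 counts each. Levels are given as CPM, counts scaled to the size of the library, after TMM scaling (trimmed mean of M-values), with factors from 0.92 to 1.059. Of all listed genes, 21206 passed the filter on low counts and were tested, and all 10 loci followed here were among them. Genes with a Benjamini-Hochberg adjusted p below 0.05 in edgeR's quasi-likelihood test are called DEGs, and errors of log2 fold changes are standard errors. The p-values set each difference against the spread between libraries of a genotype. That spread was estimated from all 6 libraries in 1 fit, 2 per genotype, with information shared across genes. The RNA came from whole seedlings, so fewer cells of a type and less RNA per cell cannot be told apart. Summed levels of 3 root markers (*PYK10*, *EXPA7* and *CASP1*) were 1292 to 1375 CPM in MA-Line1, 2329 to 2767 CPM in MC-Line3 and 2745 to 2963 CPM in Col-0. Nearly all of this sum was *PYK10*, at 1286 and 1367 CPM in MA-Line1, where *EXPA7* reached 1.51 and *CASP1* 6.24 CPM. Taken singly, 3 of 3 root markers were downregulated DEGs in MA-Line1 and 1 of 3 in MC-Line3, relative to Col-0. Over all genes tested, 19.1% were downregulated in MA-Line1 and 16.7% in MC-Line3. Summed levels of 3 shoot markers (*RBCS1A*, *CAB1* and *LHCB2.1*) were 26263 to 28450 CPM in MA-Line1 and 29608 to 31643 CPM in MC-Line3. In Col-0 they were 35522 to 37801 CPM, and 2 of 3 were downregulated DEGs in each line. *RBCS1A* was a DEG in neither line, with 10200 and 10586 CPM in MA-Line1 against 12179 and 11192 CPM in Col-0. All 6 markers were detected, and the part of these marker differences in the results was not tested.

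In MA-Line1, 9 of the 10 loci were upregulated relative to Col-0 and 0 were downregulated, and *BIP3* was not a DEG. Over all genes tested, 18% were upregulated and 19.1% downregulated in this comparison. The median log2 fold change was 0.53 over the 10 loci and 0.01 over all genes tested. In MC-Line3, 0 of the 10 loci were upregulated and 4 were downregulated (*HSP101*, *HSP70*, *BIP3* and *HSFA2*), against 14.5% upregulated and 16.7% downregulated over all genes tested. Without either MA-Line1 library, or without MC-Line3 replicate 1, 2 of these 4 calls were made (*HSP70* and *BIP3*). Scaling by library size alone, under which 73.5% of the MA-Line1 DEGs over all genes were upregulated in place of 48.4%, and 69.5% of those of MC-Line3 in place of 46.5%, gave 2 upregulated and 2 downregulated loci in MC-Line3. The median log2 fold change in MC-Line3 was -0.17 over the 10 loci and 0.01 over all genes tested. Between the lines, MA-Line1 exceeded MC-Line3 at 10 of 10 loci as DEGs, against 11.3% of all genes tested higher and 8.68% lower. These comparisons share libraries, and MA-Line1 and MC-Line3 were both set against the same pair of Col-0 libraries.

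Both MA-Line1 libraries lay above both Col-0 libraries at 10 of 10 loci, which was so for 36.3% of all genes tested. Both MC-Line3 libraries lay below both Col-0 libraries at 6 of 10 loci, against 31.7% of all genes tested, and above them at 1 of 10 loci, *HSP90.2*, against 32.9%. Both MA-Line1 libraries also lay above both MC-Line3 libraries at 10 of 10 loci, against 30.2% of all genes tested.

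**Figure D1:**
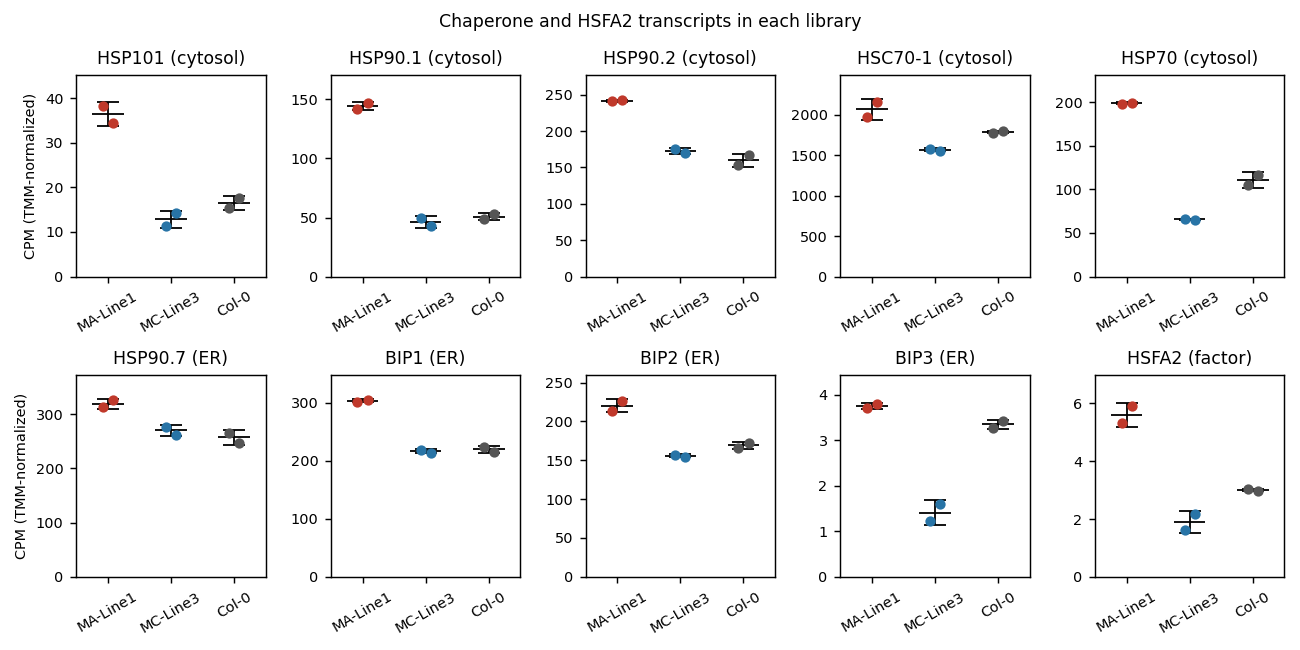
Level of each of the 10 loci, in TMM-normalized CPM on axes that start at 0, in MA-Line1, MC-Line3 and Col-0. Points are libraries (n = 2 per genotype), long bars are means and capped bars are ± 1 SD. The 2 MA-Line1 points sit above the Col-0 points in every panel, and in the *BIP3* panel they are close to them, at 3.71 and 3.81 CPM in MA-Line1 against 3.27 and 3.43 CPM in Col-0.

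Among the cytosolic chaperones, *HSP90.1*, the heat-inducible cytosolic HSP90 (chromosome 5, 21352557 to 21355147, plus strand), had the largest fold change in MA-Line1. It stood at 142 and 147 CPM in MA-Line1, 49.5 and 42.5 CPM in MC-Line3, and 48.5 and 52.8 CPM in Col-0. The MA-Line1 libraries stood apart from the other 4, and the MC-Line3 and Col-0 libraries overlapped. It was upregulated 2.85-fold in MA-Line1 (log2 fold change 1.51 ± 0.09, adjusted p = 9.72e-07 by edgeR's quasi-likelihood test). In MC-Line3 its log2 fold change was -0.14 ± 0.09 (adjusted p = 0.256 by edgeR), with a 95% interval of -0.33 to 0.05. Its constitutive relative *HSP90.2* (chromosome 5, 22686473 to 22689671, plus strand) reached 241 and 243 CPM in MA-Line1, 175 and 170 CPM in MC-Line3, and 154 and 167 CPM in Col-0. The 3 genotypes did not overlap. The rise in MA-Line1 was 1.51-fold (log2 fold change 0.60 ± 0.07, adjusted p = 0.000127 by edgeR), smaller than that of *HSP90.1*. The MC-Line3 value was 0.11 ± 0.07 on the log2 scale (adjusted p = 0.287 by edgeR, 95% interval -0.05 to 0.27). Of all stretches of 50 bases in the *HSP90.2* transcript, 18.9% also occur elsewhere, mostly in the nearby *HSP90.3*, so that its counts are less certain than those of *HSP90.1*, where 0% do. For stretches of 100 bases, the read length, the share in *HSP90.2* was 7.72%.

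*HSP101*, the disaggregase (chromosome 1, 27936508 to 27940369, minus strand), was upregulated in MA-Line1 and downregulated in MC-Line3. Its level was 38.2 and 34.5 CPM in MA-Line1, 11.4 and 14.2 CPM in MC-Line3, and 15.4 and 17.5 CPM in Col-0. None of the genotypes overlapped, and the distance of MA-Line1 from Col-0 was much wider than that of MC-Line3. The log2 fold change was 1.14 ± 0.12 in MA-Line1 (2.21-fold, adjusted p = 3.54e-05 by edgeR) and -0.36 ± 0.12 in MC-Line3 (0.778-fold, adjusted p = 0.0396 by edgeR). The MC-Line3 call is weak: without MC-Line3 replicate 1, without Col-0 replicate 2, or without either MA-Line1 library, *HSP101* was no longer a DEG there. Over all other settings tried its MC-Line3 value ran from -0.53 to -0.22 (adjusted p up to 0.252, and 0.826 with dispersions estimated without the genotypes). The setting with dispersions estimated without the genotypes called 0 of all genes tested in each comparison, so its value does not set *HSP101* apart from other loci. *HSP101* overlaps AT1G74300 on the opposite strand, which held 248 to 362 counts per library, and the strand setting of the counting is not given in the sources used here.

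*HSP70* (AT3G12580, chromosome 3, 3991117 to 3993886, minus strand), a heat-inducible cytosolic HSP70, showed the same pair of calls more firmly. There were 198 and 199 CPM in MA-Line1, 66.0 and 65.1 CPM in MC-Line3, and 105 and 117 CPM in Col-0. The 3 genotypes formed 3 separate levels, with Col-0 in the middle. *HSP70* was upregulated 1.79-fold in MA-Line1 (log2 fold change 0.84 ± 0.08, adjusted p = 1.81e-05 by edgeR) and fell to 0.591-fold in MC-Line3 (log2 fold change -0.76 ± 0.08, adjusted p = 4.9e-05 by edgeR). The constitutive *HSC70-1* (chromosome 5, 553745 to 556623, minus strand) was the most abundant of the 10 loci. It had 1978 and 2160 CPM in MA-Line1, 1583 and 1554 CPM in MC-Line3, and 1781 and 1799 CPM in Col-0. The genotypes again kept the order MA-Line1, Col-0, MC-Line3 without overlap, over a narrow range. The log2 fold change was 0.21 ± 0.07 in MA-Line1 (adjusted p = 0.0381 by edgeR) and -0.19 ± 0.07 in MC-Line3 (adjusted p = 0.0611 by edgeR, 95% interval -0.35 to -0.04). The MA-Line1 call was kept in 7 of 17 other settings and was lost without either MA-Line1 library and without either MC-Line3 library (adjusted p 0.000674 to 0.344, and 0.638 with dispersions estimated without the genotypes).

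Among the ER chaperones, the BiP pair *BIP1* and *BIP2*, constitutive HSP70s of the ER lumen, rose in MA-Line1 by less than the heat-inducible cytosolic genes. *BIP1* (chromosome 5, 10540123 to 10543558, minus strand) had 302 and 305 CPM in MA-Line1, 219 and 214 CPM in MC-Line3, and 224 and 216 CPM in Col-0. *BIP2* (chromosome 5, 16807342 to 16810693, minus strand) had 214 and 226 CPM in MA-Line1, 157 and 154 CPM in MC-Line3, and 166 and 172 CPM in Col-0. MA-Line1 stood above the other 4 libraries at both genes, and MC-Line3 overlapped with Col-0 at *BIP1* and lay just below it at *BIP2*. *BIP1* was upregulated 1.38-fold in MA-Line1 (log2 fold change 0.47 ± 0.07, adjusted p = 0.000419 by edgeR) and *BIP2* 1.30-fold (0.38 ± 0.07, adjusted p = 0.00173 by edgeR). In MC-Line3 the log2 fold changes were -0.02 ± 0.07 for *BIP1* (95% interval -0.17 to 0.13) and -0.12 ± 0.07 for *BIP2* (95% interval -0.27 to 0.04), and neither was a DEG. The transcripts are near copies: 23.5% of the stretches of 50 bases in *BIP1* and 24.1% of those in *BIP2* also occur elsewhere, nearly all of them in the other of the pair, so reads could be split between them.

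*HSP90.7*, the ER HSP90 with an ERSE next to its start (chromosome 4, 12551552 to 12556058, minus strand), had the smallest of the called ER differences. It stood at 313 and 326 CPM in MA-Line1, 277 and 262 CPM in MC-Line3, and 266 and 247 CPM in Col-0. MC-Line3 and Col-0 overlapped and MA-Line1 lay above both. The log2 fold change was 0.31 ± 0.07 in MA-Line1 (1.24-fold, adjusted p = 0.00712 by edgeR), and without MA-Line1 replicate 2 the gene was not a DEG (adjusted p = 0.0907 by edgeR). In MC-Line3 it was 0.07 ± 0.07 (adjusted p = 0.506 by edgeR, 95% interval -0.09 to 0.23).

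*BIP3*, the stress-inducible BiP with 2 ERSE copies upstream (chromosome 1, 2929217 to 2931850, minus strand), was the exception among the ER chaperones. It was scarce, with 3.71 and 3.81 CPM in MA-Line1, 1.22 and 1.61 CPM in MC-Line3, and 3.27 and 3.43 CPM in Col-0. These levels rest on 219 to 251 counts in MA-Line1, 66 to 91 in MC-Line3 and 176 to 212 in Col-0. MC-Line3 was set apart below the other genotypes. *BIP3* was downregulated to 0.423-fold in MC-Line3 (log2 fold change -1.24 ± 0.21, adjusted p = 0.00132 by edgeR), the largest fall among the 10 loci in either line. Its MA-Line1 log2 value was 0.17 ± 0.19 (adjusted p = 0.535 by edgeR), with a 95% interval of -0.26 to 0.59 that takes in the values of *BIP1*, *BIP2* and *HSP90.7*.

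*HSFA2* (chromosome 2, 11135624 to 11137792, plus strand), a factor that sustains the expression of heat-induced chaperone genes, followed the pattern of *HSP101* and *HSP70*. Its level was 5.31 and 5.90 CPM in MA-Line1, 1.63 and 2.17 CPM in MC-Line3, and 3.03 and 2.97 CPM in Col-0. The genotypes did not overlap. It was upregulated 1.86-fold in MA-Line1 (log2 fold change 0.90 ± 0.19, adjusted p = 0.00336 by edgeR) and downregulated to 0.634-fold in MC-Line3 (-0.66 ± 0.20, adjusted p = 0.0277 by edgeR). The MC-Line3 call was lost without MC-Line3 replicate 1 and without either MA-Line1 library, over settings whose values ran from -0.88 to -0.47 (adjusted p up to 0.159, and 0.676 with dispersions estimated without the genotypes).

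The direct comparison of the lines separated the loci into a group with large and a group with small differences. In MA-Line1 relative to MC-Line3, *HSP90.1* was 3.14-fold (log2 difference 1.65 ± 0.09), *HSP70* 3.03-fold (1.60 ± 0.08), *HSFA2* 2.94-fold (1.56 ± 0.19), *HSP101* 2.84-fold (1.50 ± 0.12) and *BIP3* 2.65-fold (1.41 ± 0.21). The highest adjusted p among these was that of *BIP3* (0.000716 by edgeR). The other 5 loci, which are the constitutive members of both compartments and *HSP90.7*, ran from 1.18-fold for *HSP90.7* (log2 difference 0.24 ± 0.07, adjusted p = 0.0407 by edgeR) to 1.41-fold for *BIP2* (0.50 ± 0.07, adjusted p = 0.000572 by edgeR). The *HSP90.7* difference was not a DEG without any single library of MA-Line1 or of MC-Line3 (adjusted p up to 0.301 over the settings tried, and 0.911 with dispersions estimated without the genotypes), and that of *HSC70-1* (0.40 ± 0.07) was not without MA-Line1 replicate 2. For *BIP3* the difference lay in a low MC-Line3 level, whereas for *HSP90.1* it lay in a high MA-Line1 level.

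**Figure D2:**
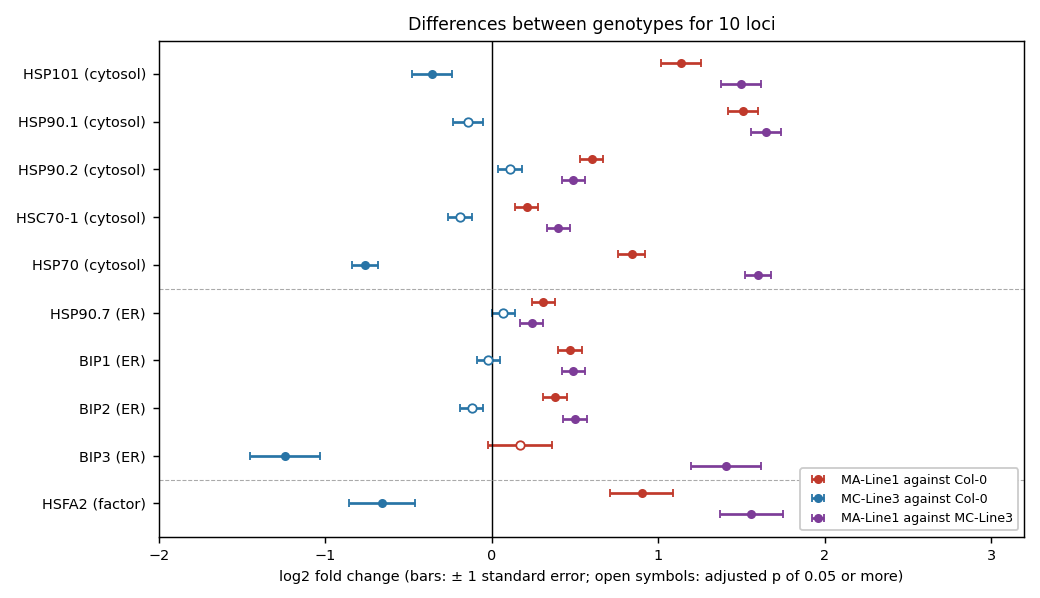
Log2 fold change (x axis) of each locus (y axis, grouped by compartment) for MA-Line1 against Col-0, MC-Line3 against Col-0 and MA-Line1 against MC-Line3. Bars are ± 1 standard error and open symbols have an adjusted p of 0.05 or more. The MA-Line1 points against Col-0 run from 0.17 (*BIP3*) to 1.51 (*HSP90.1*), and the MC-Line3 points from -1.24 (*BIP3*) to 0.11 (*HSP90.2*).

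By compartment, 5 of 5 cytosolic and 3 of 4 ER chaperones were upregulated in MA-Line1, against 18% of all genes tested. Their median log2 fold changes were 0.84 in the cytosol and 0.35 in the ER. In MC-Line3, 2 of 5 cytosolic and 1 of 4 ER chaperones were downregulated, against 16.7% of all genes tested. The medians there were -0.19 and -0.07. In the comparison of MA-Line1 with MC-Line3 all were higher in MA-Line1, against 11.3% of all genes tested. The medians were then 1.50 in the cytosol and 0.49 in the ER. The cytosolic median exceeded the ER median by 0.49 in MA-Line1 against Col-0, by -0.12 in MC-Line3 against Col-0 and by 1.01 in MA-Line1 against MC-Line3. Another measure, the median log2 CPM of the cytosolic genes minus that of the ER genes within a library, was -0.36 and -0.40 in MA-Line1, with -1.49 and -1.48 in MC-Line3 and -0.88 and -0.71 in Col-0. On this measure of levels the genotypes did not overlap, and MC-Line3 stood further from Col-0 than by the median fold changes. In every library the cytosolic median was *HSP70* and the ER median lay between *BIP1* and *BIP2*. The values within each compartment overlapped, since *HSC70-1* rose by less than any called ER gene and *BIP3* differed between the lines by more than *HSP90.2*. With so few loci in each compartment and their choice made by name, these medians are a description and the difference between compartments was not tested.

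Levels can be compared between genes once divided by transcript length. In CPM per kb of annotated exon, *HSC70-1* stood at 810 ± 50.6 in MA-Line1, 614 ± 8.12 in MC-Line3 and 701 ± 5 in Col-0 (SD, n = 2 each), far above every other locus. The next group held the 3 abundant ER genes and *HSP90.2*, from 107 (*BIP1*) to 80.7 (*BIP2*) in MA-Line1, from 88.9 (*HSP90.7*) to 57.1 (*BIP2*) in MC-Line3 and from 84.6 (*HSP90.7*) to 55.7 (*HSP90.2*) in Col-0. *HSP70* and *HSP90.1* came close to that group in MA-Line1, at 78.8 and 68.6 CPM per kb, against 26.0 and 21.9 in MC-Line3 and 44.0 and 24.1 in Col-0. *HSP101*, *HSFA2* and *BIP3* were the 3 lowest in every genotype, at 10.8, 2.99 and 1.77 CPM per kb in MA-Line1, at 3.81, 1.01 and 0.666 in MC-Line3, and at 4.90, 1.60 and 1.58 in Col-0. Neighbours in this order that did not differ beyond their SD were *BIP1* and *HSP90.7* in MA-Line1, *BIP2* and *HSP70* in MA-Line1, and *HSFA2* and *BIP3* in Col-0. As the *HSP90.1* model holds only coding sequence, its length is a coding length and its value per kb is less comparable.

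Summed over the compartments, the cytosolic genes gave 1015 and 1089 CPM per kb in MA-Line1, 734 and 718 CPM per kb in MC-Line3, and 820 and 839 in Col-0. The ER genes gave 290 and 300 CPM per kb in MA-Line1, 227 and 219 CPM per kb in MC-Line3, and 229 and 222 in Col-0. Both sums were highest in MA-Line1, and MC-Line3 lay below Col-0 in the cytosolic sum and overlapped with it in the ER sum. The ratio of the cytosolic to the ER sum was 3.5 and 3.63 in MA-Line1, with 3.24 and 3.27 in MC-Line3 and 3.58 and 3.78 in Col-0, so that MA-Line1 overlapped with Col-0 and MC-Line3 lay below both. The sum is mostly *HSC70-1*, which made up 76.2% and 77.6% of it in MA-Line1, with 84.4% and 84.8% in MC-Line3, and 85% and 83.9% in Col-0. Its share was lower in both MA-Line1 libraries than in the other 4.

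**Figure D3:**
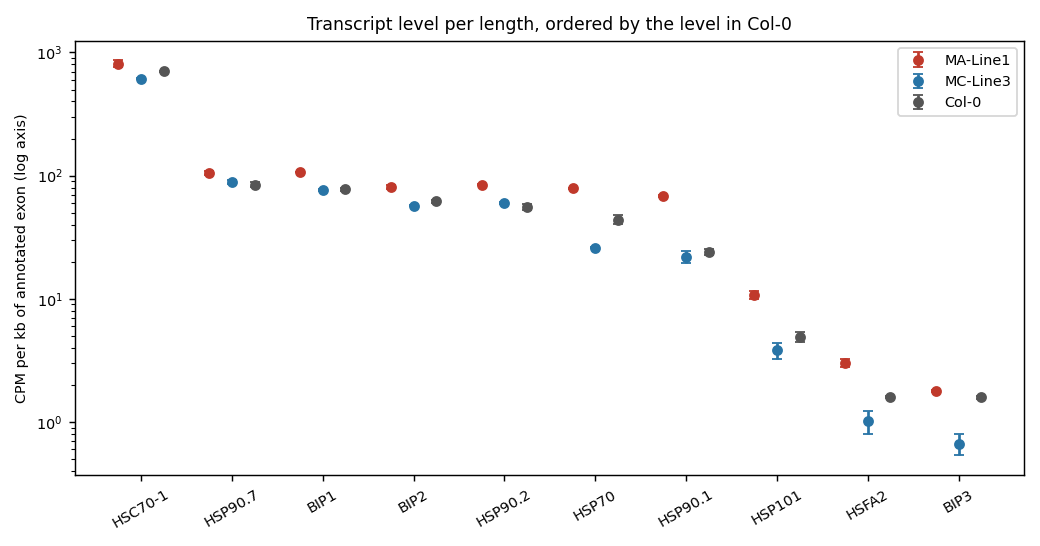
Mean level in CPM per kb of annotated exon (log axis) of the 10 loci, ordered by their level in Col-0, for MA-Line1, MC-Line3 and Col-0. Bars are ± 1 SD (n = 2 per genotype) and are smaller than the symbol where not visible. *HSP70* and *HSP90.1* of MA-Line1 lie near the level of *BIP2*, at 78.8 and 68.6 against 80.7 CPM per kb.

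The other genes of both systems were followed in 6 lists with 84 genes. Over all genes tested, 18% were upregulated and 19.1% downregulated in MA-Line1, and 14.5% and 16.7% in MC-Line3. Of the other cytosolic HSP70 and HSP90 genes, 5 of 9 tested were upregulated and 0 downregulated in MA-Line1 (median log2 fold change 0.25), and 1 was upregulated and 4 downregulated in MC-Line3 (median -0.11). *HSC70-2* (AT5G02490), which lies next to *HSC70-1*, had 44.9 and 45.8 CPM in MA-Line1, 15.6 and 15.9 CPM in MC-Line3, and 20.5 and 23.4 CPM in Col-0. It was upregulated in MA-Line1 and downregulated in MC-Line3, at 1.04 ± 0.09 and -0.48 ± 0.09 on the log2 scale (adjusted p = 9.4e-06 and 0.00223 by edgeR). *HSC70-3* (AT3G09440) had the same pair of directions, at 0.40 ± 0.07 and -0.63 ± 0.07, but overlaps a gene on each strand. The heat-inducible *HSP70B* (AT1G16030) was upregulated in MA-Line1 alone, at 1.29 ± 0.14, with -0.11 ± 0.14 in MC-Line3 (adjusted p = 0.608 by edgeR), and its difference between the lines was 1.40 ± 0.14 (adjusted p = 5.26e-05 by edgeR).

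Among the HSP70, HSP90 and ClpB genes of plastids and mitochondria, 5 of 8 were upregulated and 1 downregulated in MA-Line1 (median 0.48). In MC-Line3, 2 were upregulated and 2 downregulated (median 0.05). The shares of all genes tested were 18% and 19.1% in MA-Line1, and 14.5% and 16.7% in MC-Line3. The organellar relatives of HSP101 split in MA-Line1: *CLPB4* (AT2G25140), the mitochondrial one, was upregulated at 0.58 ± 0.10 and *CLPB3* (AT5G15450), the plastid one, was downregulated at -0.25 ± 0.08. In MC-Line3 both were downregulated, at -0.39 ± 0.10 for *CLPB4* and -0.41 ± 0.08 for *CLPB3*. Both were named after their values were seen.

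Cytosolic co-chaperones and other partners of the heat response moved with the chaperones in MA-Line1, where 12 of 16 were upregulated and 0 downregulated (median 0.50). In MC-Line3, 4 were upregulated and 1 downregulated (median 0.10). The shares of all genes tested were 18% upregulated and 19.1% downregulated in MA-Line1, and 14.5% and 16.7% in MC-Line3. *ROF2* (AT5G48570), an immunophilin that binds HSP90, had 63.5 and 63.9 CPM in MA-Line1, 37.5 and 31.6 CPM in MC-Line3, and 21.7 and 24.4 CPM in Col-0. It was upregulated in both lines, at 1.47 ± 0.10 in MA-Line1 and 0.58 ± 0.10 in MC-Line3 on the log2 scale, unlike any of the 10 loci. *HOP3* (AT4G12400), which links HSP70 with HSP90, was upregulated in MA-Line1 at 1.14 ± 0.10 and had 0.17 ± 0.10 in MC-Line3 (adjusted p = 0.200 by edgeR). *FES1A* (AT3G09350), an HSP70-binding protein, was upregulated in MA-Line1 at 1.01 ± 0.08 and had -0.04 ± 0.09 in MC-Line3. *MBF1C* (AT3G24500), a coactivator of the heat response, was upregulated in MA-Line1 at 0.72 ± 0.13 and had -0.36 ± 0.13 in MC-Line3 (adjusted p = 0.0629 by edgeR). *HOP3*, *FES1A* and *MBF1C* overlap genes on the opposite strand.

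Of the other heat shock factors, none was upregulated with *HSFA2* in MA-Line1. Of 15 tested of 20 listed, 0 were upregulated and 6 downregulated in MA-Line1 (median -0.22), against 18% and 19.1% of all genes tested. In MC-Line3, 0 were upregulated and 4 downregulated (median -0.15), against 14.5% and 16.7%. Between the lines, 3 of these factors were higher and 2 lower in MA-Line1 than in MC-Line3, against 11.3% and 8.68% of all genes tested. *HSFB3*, *HSFB2A* and *HSFA4A* were the 3 that were higher, as *HSFA2* was. *HSFA4A* (AT4G18880) was downregulated in both lines, at -0.44 ± 0.08 in MA-Line1 and -1.01 ± 0.08 in MC-Line3. *HSFB2A* (AT5G62020), a repressor-type factor, had 21.7 and 22.1 CPM in MA-Line1, 12.8 and 12 CPM in MC-Line3, and 30.1 and 40.3 CPM in Col-0. Both lines lay below Col-0, MC-Line3 furthest, at -0.69 ± 0.12 in MA-Line1 and -1.50 ± 0.13 in MC-Line3. *HSFA6A* (AT5G43840) was scarce, with 0.177 and 0.139 CPM in MA-Line1, 0.481 and 0.618 CPM in MC-Line3, and 1.17 and 1.08 CPM in Col-0, and was downregulated in MA-Line1 at -2.81 ± 0.43 (adjusted p = 0.000549 by edgeR), with -1.03 ± 0.38 in MC-Line3 (adjusted p = 0.0587 by edgeR). *HSFB3* (AT2G41690), also scarce, had 0.828 and 1.03 CPM in MA-Line1, 0.203 and 0.265 CPM in MC-Line3, and 0.335 and 0.598 CPM in Col-0. Its libraries stood in the order of those of *HSFA2* without overlap. It differed between the lines at 1.97 ± 0.46 (adjusted p = 0.0124 by edgeR), and its values against Col-0, 0.97 ± 0.42 in MA-Line1 (adjusted p = 0.0951 by edgeR) and -1 ± 0.49 in MC-Line3 (adjusted p = 0.149 by edgeR), did not pass the test.

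In the ER, 15 of 18 folding partners of BiP and HSP90.7 were upregulated and 0 downregulated in MA-Line1 (median 0.33), and 3 were upregulated and 1 downregulated in MC-Line3 (median 0.05). The one downregulated in MC-Line3 was *ERDJ3A* (AT3G08970), a J-domain partner of BiP, with 8.84 and 8.02 CPM in MA-Line1, 3.53 and 3.90 CPM in MC-Line3, and 6.66 and 7.89 CPM in Col-0. Its log2 values were 0.21 ± 0.14 in MA-Line1 (adjusted p = 0.267 by edgeR) and -0.97 ± 0.15 in MC-Line3 (adjusted p = 0.000781 by edgeR), the calls that *BIP3* had, and it overlaps a gene on the opposite strand. Over all genes tested, 18% were upregulated and 19.1% downregulated in MA-Line1, and 14.5% and 16.7% in MC-Line3. Of 12 genes of ER stress signalling and ER-associated degradation, 4 were upregulated and 1 downregulated in MA-Line1 (median 0.19). In MC-Line3, 2 of this list were upregulated and 4 downregulated (median -0.14).

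Within that list the ER stress-induced *TIN1* (AT5G64510) had 9.84 and 9.81 CPM in MA-Line1, 4.50 and 4.26 CPM in MC-Line3, and 6.85 and 8.06 CPM in Col-0. It was upregulated in MA-Line1 at 0.40 ± 0.13 (adjusted p = 0.0354 by edgeR) and downregulated in MC-Line3 at -0.77 ± 0.14 (adjusted p = 0.00189 by edgeR). *BZIP60* (AT1G42990), which encodes an activator of ER chaperone genes and was named after its values were seen, had the same directions, at 0.27 ± 0.08 and -0.54 ± 0.08. *BZIP28* (AT3G10800), which encodes the other activator and was also named after its values were seen, was instead downregulated in both lines, at -0.23 ± 0.08 in MA-Line1 (adjusted p = 0.0493 by edgeR) and -0.59 ± 0.08 in MC-Line3 (adjusted p = 0.000443 by edgeR). *NAC103* (AT5G64060), a factor downstream of bZIP60, was upregulated in both lines, at 1.16 ± 0.20 in MA-Line1 and 0.92 ± 0.20 in MC-Line3.

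**Figure D4:**
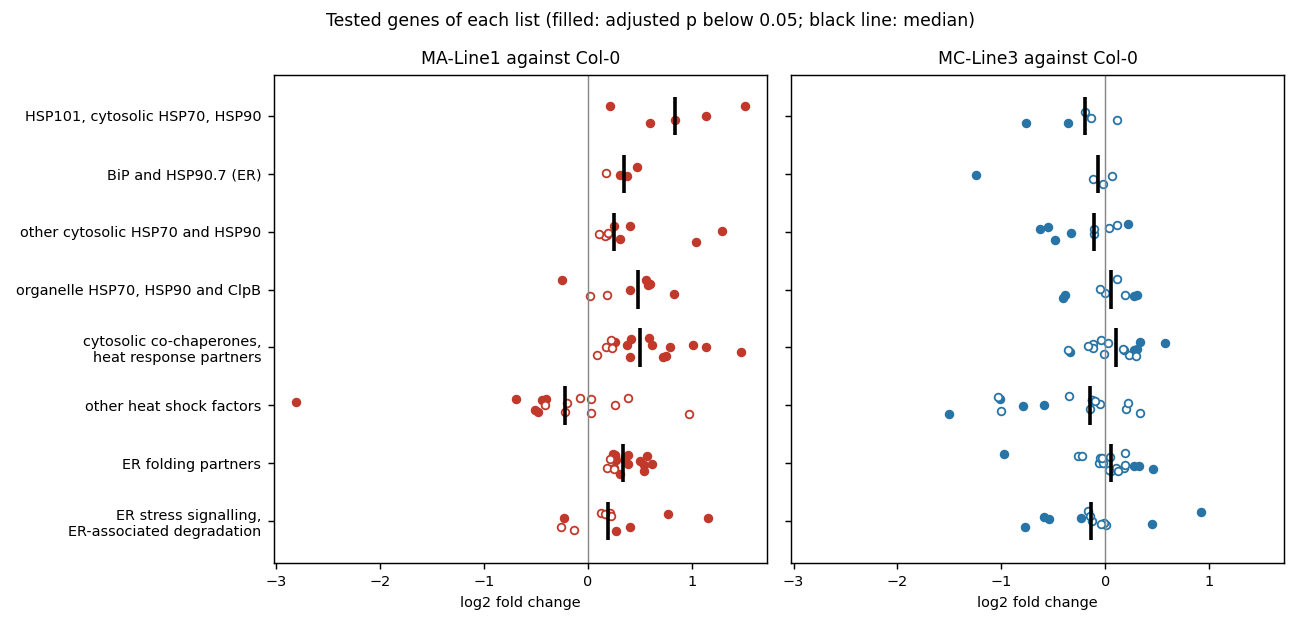
Log2 fold changes (x axis) of the tested genes of each list (y axis) for MA-Line1 against Col-0 and for MC-Line3 against Col-0. Points are genes, filled where the adjusted p is below 0.05, and black lines are medians. In MA-Line1 the medians of all lists but the other heat shock factors (-0.22) lie above 0, and in MC-Line3 they run from -0.19 to 0.10.

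Likeness to *HSP101*, *HSFA2* and *BIP2* over the 6 libraries was measured as the root mean square difference of centred log2 CPM, so that a small value means a similar pattern and size of change. The 5 genes most like *HSP101* were AT1G51915, *SBT3.5* (AT1G32940), AT2G20142, *HSC70-2* and AT1G51913, at 0.0805 to 0.116. Of these *HSC70-2*, at 0.109, was the only one in the lists above. The 5 genes most like *HSFA2* were *WRKY8* (AT5G46350), *LSU3* (AT3G49570), AT4G03450, AT3G28840 and *WRKY55* (AT2G40740), at 0.109 to 0.142, and the first and the last of them encode WRKY transcription factors. The 5 most like *BIP2* were AT1G79550, which encodes a phosphoglycerate kinase (PGK), AT1G65820, AT3G02360, *ORA59* (AT1G06160) and AT5G67245, at 0.0227 to 0.0356. Likeness was not limited to DEGs. AT3G28840 and *WRKY55* were not DEGs against Col-0 in either line, and AT5G67245 was not a DEG in any comparison. These likenesses are descriptions over libraries that fall into 3 genotypes.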

How the data were processed

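Whole-seedling polyA RNA of 3 genotypes (2 libraries each) was analysed. The authors deposited raw read counts for each gene, made with TopHat2 and HTSeq on TAIR10, per the labels, from paired-end reads trimmed beforehand. The MC columns of the table name line 1 and the sample labels line 3, and they were assigned by construct letter and replicate number. The study's text and the labels give different seedling ages, and that of the labels is used.

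All 6 libraries entered 1 fit in edgeR 4.0.16 (R 4.3.3, limma 3.58.1), with TMM scaling, the default expression filter, the quasi-likelihood test and Benjamini-Hochberg adjustment over 21206 genes. Standard errors were derived from the log2 fold change and its F statistic. DESeq2 1.42.0 was an alternative, among 16 set out in advance and 2 added after seeing the data.

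Besides the 10 loci, the rule named up to 4 genes per list with a called log2 fold change of at least 1 in size. The loci and lists were chosen with earlier results of these data known. Locus names and positions came from TAIR10.1, which held 97.3% of the listed genes.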

Additional observations from a re-analysis of the deposited data

Results flagged for a closer look

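*HSP101*, *HSP70* and *HSFA2* were called in opposite directions in the transgenic lines, upregulated in MA-Line1 and downregulated in MC-Line3. Of 17 other settings, leaving aside that with dispersions estimated without the genotypes, the MC-Line3 call was kept in 17 for *HSP70*, 11 for *HSP101* (adjusted p up to 0.252 by edgeR) and 12 for *HSFA2* (adjusted p up to 0.159 by edgeR). The flag also required that the difference between the lines be called by edgeR's quasi-likelihood test, so that difference is no separate support. It was 1.50 on the log2 scale for *HSP101*, with 38.2 and 34.5 CPM in MA-Line1 against 11.4 and 14.2 CPM in MC-Line3. For *HSP70* it was 1.60, with 198 and 199 CPM in MA-Line1 against 66.0 and 65.1 CPM in MC-Line3. For *HSFA2* it was 1.56, with 5.31 and 5.90 CPM in MA-Line1 against 1.63 and 2.17 CPM in MC-Line3. MA-Line1 was higher in 2 of 2 libraries at each, which was so for 30.2% of all genes tested. The adjusted p of *HSFA2*, the highest of the 3, was 0.000225 by edgeR.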

How the results depend on the processing

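Every value of the 10 loci in MA-Line1 against Col-0 and against MC-Line3 was above 0 under every alternative run (180 of 180 each), and 38 of 180 were in MC-Line3 against Col-0. The alternatives reuse the same libraries, and several change the test and hardly the fold change, so these values are not separate checks. The main settings, with edgeR's quasi-likelihood test, called 9, 4 and 10 loci in MA-Line1 against Col-0, MC-Line3 against Col-0 and MA-Line1 against MC-Line3. With dispersions estimated without the genotypes, a choice made after seeing the data, edgeR's likelihood ratio test was used in its place. The loci called were then 0, 0 and 0. That setting without the genotypes called 0 of all 21206 genes in each comparison. An unadjusted p below 0.05 was reached by 2, 1 and 6 of the 10 loci and by 2587, 1875 and 1448 of all genes. With only the 2 groups compared, 2 loci were called in MC-Line3 against Col-0, both downregulated. Over all 20971 genes tested in that setting, 2244 were upregulated and 2971 downregulated. Without 1 library in turn, 7 to 9 loci were called in MA-Line1 against Col-0, 2 to 5 in MC-Line3 against Col-0 and 8 to 10 in MA-Line1 against MC-Line3, and a genotype left with 1 library was assumed to vary like the others. The cytosolic minus ER median then ran from 0.40 to 0.59 in MA-Line1 against Col-0 (0.40 without Col-0 replicate 1 and 0.59 without Col-0 replicate 2), from -0.13 to -0.11 in MC-Line3 against Col-0 and from 0.85 to 1.11 in MA-Line1 against MC-Line3. With library size alone, the median over all genes was 0.18 for MA-Line1 and 0.14 for MC-Line3, upregulated genes made up 73.5% of the MA-Line1 DEGs and 69.5% of those of MC-Line3, in place of 48.4% and 46.5%, and *BIP1* (0.11) and *BIP2* (0.01) turned above 0 in MC-Line3 without being called, where *HSP90.2* (0.24) and *HSP90.7* (0.20) were called, *HSP101* and *HSFA2* were not, and *HSP70* and *BIP3* stayed downregulated. The replicate numbers do not pair the libraries (correlations of deviations -0.0708 for MA-Line1 and Col-0, 0.0221 for MC-Line3 and Col-0 and -0.078 for MA-Line1 and MC-Line3), and with the replicate block 8 loci were called in MA-Line1 against Col-0, 4 in MC-Line3 against Col-0 and 9 in MA-Line1 against MC-Line3, with *HSC70-1* at 0.21 (adjusted p = 0.0761 by edgeR). Over all 21206 genes, the replicate block called 3642 upregulated and 3851 downregulated in MA-Line1 against Col-0. It called 2863 and 3352 in MC-Line3 against Col-0, and 2276 and 1675 in MA-Line1 against MC-Line3. The planned fit with edgeR's older quasi-likelihood method is the default here and gave no separate value. Where no cause is shown by the setting itself, the cause was not tested. Counts were low for *BIP3* and *HSFA2*, at 66 and 88 in their lowest libraries, and the part of depth in their results was not tested.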
